A study of Mus musculus with 12 samples.

Results

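The mRNA levels of 10 genes of the interferon system were followed in bone marrow-derived dendritic cells (BMDCs) of mice with an intact CD18 gene or with CD18 deleted by Cre from the CD11c promoter. The genes were chosen by name from the 41709 genes counted. They comprise the interferon regulatory factors Irf1, Irf2, Irf3, Irf5, Irf7 and Irf9, the cytokine gene Ifnb1, and the receptor chains Ifnar1, Ifnar2 and Ifngr1. BMDCs were grown from bone marrow for 10 days in medium with GM-CSF and were left unstimulated or received LPS at 100 ng/mL, over a time given as 24 h in the labels and as overnight in the methods. MHCII-positive cells were then isolated magnetically and subjected to poly(A)-selected RNA-seq, with 3 libraries in each of 4 groups. All mice were homozygous for a floxed exon 3 of CD18 (Itgb2), the chain common to all β2 integrins. CD18fl/fl mice lacked Cre and served as controls, whereas CD18CD11c cKO mice (CD18-delta-CD11c in the labels) carried Cre under the CD11c promoter, so that deletion depends on when and in which cells that promoter is active. The labels number the libraries of a group from 1 to 3 but do not say whether each came from a separate animal or culture, so that p-values measure the spread between these libraries.

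LPS is sensed by Tlr4, which through the adaptor Ticam1 and the kinase Tbk1 activates Irf3, and Irf3 together with NF-κB switches on Ifnb1. Secreted interferon-β binds the receptor formed by Ifnar1 and Ifnar2, after which the complex ISGF3, with Irf9 as its DNA-binding subunit, forms and induces interferon-stimulated genes, Irf7 among them. Irf7 in turn amplifies type I interferon production, Irf5 drives inflammatory cytokine genes, and Irf1 and Irf2 compete for the same DNA sites, Irf1 mostly as an activator and Irf2 mostly as a repressor. Ifngr1 is the ligand-binding chain of the receptor for interferon-γ, with Ifngr2 as its partner.

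Each library held between 29689149 and 34037178 reads counted on genes. Levels are given as CPM (reads scaled to library size after TMM correction), and the floor taken here, 3 reads, lay between 0.0752 and 0.135 CPM and covers counting error only. Itgb2, the targeted gene, was lower in CD18CD11c cKO than in CD18fl/fl BMDCs without overlap of libraries, at 158 ± 34.8 against 394 ± 23.0 CPM unstimulated and at 108 ± 15.6 against 202 ± 56.3 CPM after LPS (mean ± SD, n = 3). In edgeR's quasi-likelihood test its adjusted p was 0.0887 unstimulated and 0.428 after LPS, which misses the threshold of 0.05, and 0.00392 and 0.0201 with a block for the replicate number. The cKO cells thus kept Itgb2 reads, of which those outside the deleted exon do not report on the deletion. All 10 dendritic cell markers examined, among them Itgax and H2-Ab1, were detected in every group, with a summed level between 16260 and 46430 CPM. The libraries numbered 3 stood apart in all 4 groups: their 6 monocyte markers summed to between 200.3 and 296 CPM, against 835.8 to 1619 CPM in the other libraries, and their 6 mast cell or basophil markers, highest in replicate 3 within every group, to between 41.0 and 164 CPM, against 14.2 to 44.3 CPM. Each test was also run with the replicate number as a block, which compares libraries of the same number.

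To show the DNA next to which these genes start, the 250 bases before a RefSeq start site are printed for 4 genes whose window held a motif of the pathway. All 10 genes had an entry in the RefSeq promoter table (12 windows of 300 bases, build GRCm38.p6), and each window occurred exactly once in GRCm39, whose coordinates are given. Sequences run 5′ to 3′ on the gene's own strand, and capitals mark matches to the interferon-stimulated response element core (GAAA, any 2 bases and GAAA again), the STAT site (GAS) TTCNNNGAA or the NF-κB consensus, each searched on both strands.
Ifnb1 (chr4:88441032-88441281, - strand): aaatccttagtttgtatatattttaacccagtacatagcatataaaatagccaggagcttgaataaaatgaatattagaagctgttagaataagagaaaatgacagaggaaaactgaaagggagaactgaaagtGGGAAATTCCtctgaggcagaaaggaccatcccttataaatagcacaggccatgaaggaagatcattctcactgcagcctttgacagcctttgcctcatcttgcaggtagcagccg
Irf1 (chr11:53660591-53660840, + strand): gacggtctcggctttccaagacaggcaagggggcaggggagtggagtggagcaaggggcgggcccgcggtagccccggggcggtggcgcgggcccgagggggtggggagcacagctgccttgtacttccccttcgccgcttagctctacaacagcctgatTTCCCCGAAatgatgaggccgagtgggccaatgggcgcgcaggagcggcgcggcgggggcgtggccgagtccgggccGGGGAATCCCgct
Irf2 (chr8:47192530-47192779, + strand): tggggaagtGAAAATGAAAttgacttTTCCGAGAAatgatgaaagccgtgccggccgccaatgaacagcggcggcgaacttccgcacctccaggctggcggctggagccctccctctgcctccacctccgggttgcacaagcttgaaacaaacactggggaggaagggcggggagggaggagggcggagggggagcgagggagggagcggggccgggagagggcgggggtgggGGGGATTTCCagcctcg
Ifnar2 (chr16:91169421-91169670, + strand): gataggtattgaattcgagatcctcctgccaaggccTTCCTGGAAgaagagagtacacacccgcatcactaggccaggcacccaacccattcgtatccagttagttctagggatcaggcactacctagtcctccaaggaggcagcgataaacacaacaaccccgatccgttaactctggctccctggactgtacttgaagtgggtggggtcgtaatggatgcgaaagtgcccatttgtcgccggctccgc

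The Ifnb1 window held an NF-κB match at bases -116 to -107 before the start site. Irf1 had a GAS match at -90 to -82 and an NF-κB match at -13 to -4. Irf2 held all 3 motifs, with the response element core at -241 to -232, GAS at -224 to -216 and NF-κB at -17 to -8. The GAS match of Ifnar2 lay at -214 to -206, and Ifnar1 had a further match to GAS at -5 to 3, across its start site. The windows of Irf3, Irf5, Irf7, Irf9 and Ifngr1 held none of these letters. The Irf9 windows, from base 55841192 on, lay inside the gene as annotated in the counts, which starts at 55841028. The DNA before that start was therefore not searched. Among all 32851 windows of the same length, the response element core was found in 3.44%, GAS in 8.3% and the NF-κB consensus in 8.46%, beside 1, 4 and 3 of the 10 genes. A match is a description of the letters only.

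Between genes, levels were compared per transcript length, as TPM (length-scaled share of a library's reads). TPM carries no TMM correction, so that its values serve to order genes within a group. Groups are compared by CPM. In unstimulated CD18fl/fl BMDCs Ifngr1 had the highest mean level, at 182 TPM, followed by Irf5 at 121, Irf1 at 61.2, Ifnar2 at 57.0, Irf9 at 34.4, Ifnar1 at 32.5, Irf2 at 31.7, Irf3 at 26.8, Irf7 at 11.4 and Ifnb1 at 0.133 TPM. Neighbours in this order did not overlap between libraries only at 4 steps, from Irf5 to Irf1, from Ifnar2 to Irf9, from Irf3 to Irf7 and from Irf7 to Ifnb1. After LPS treatment Irf7 was at the top with 460 TPM, above Irf1 at 143 TPM without overlap, followed by Irf5 at 85.1, Ifnar2 at 80.1, Irf9 at 69.8, Ifngr1 at 48.1, Ifnar1 at 29.7, Irf3 at 15.8, Irf2 at 14.9 and Ifnb1 at 6.41 TPM. Apart from the step below Irf7, neighbours did not overlap from Ifnar1 to Irf3 and from Irf2 to Ifnb1. Among the genes detected in these cells that have an exon length above 0, Irf7 moved from rank 5401 of 15096 to rank 329 of 14977 by mean TPM. In CD18CD11c cKO BMDCs the order was the same before stimulation, with Ifngr1 at 107 and Irf7 at 4.29 TPM. After LPS it again began with Irf7 at 260 TPM, above Irf1 at 70.8 TPM without overlap. Irf7 ranked 6796 of 14979 genes before and 504 of 15133 genes after stimulation there.

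**Figure D1:**
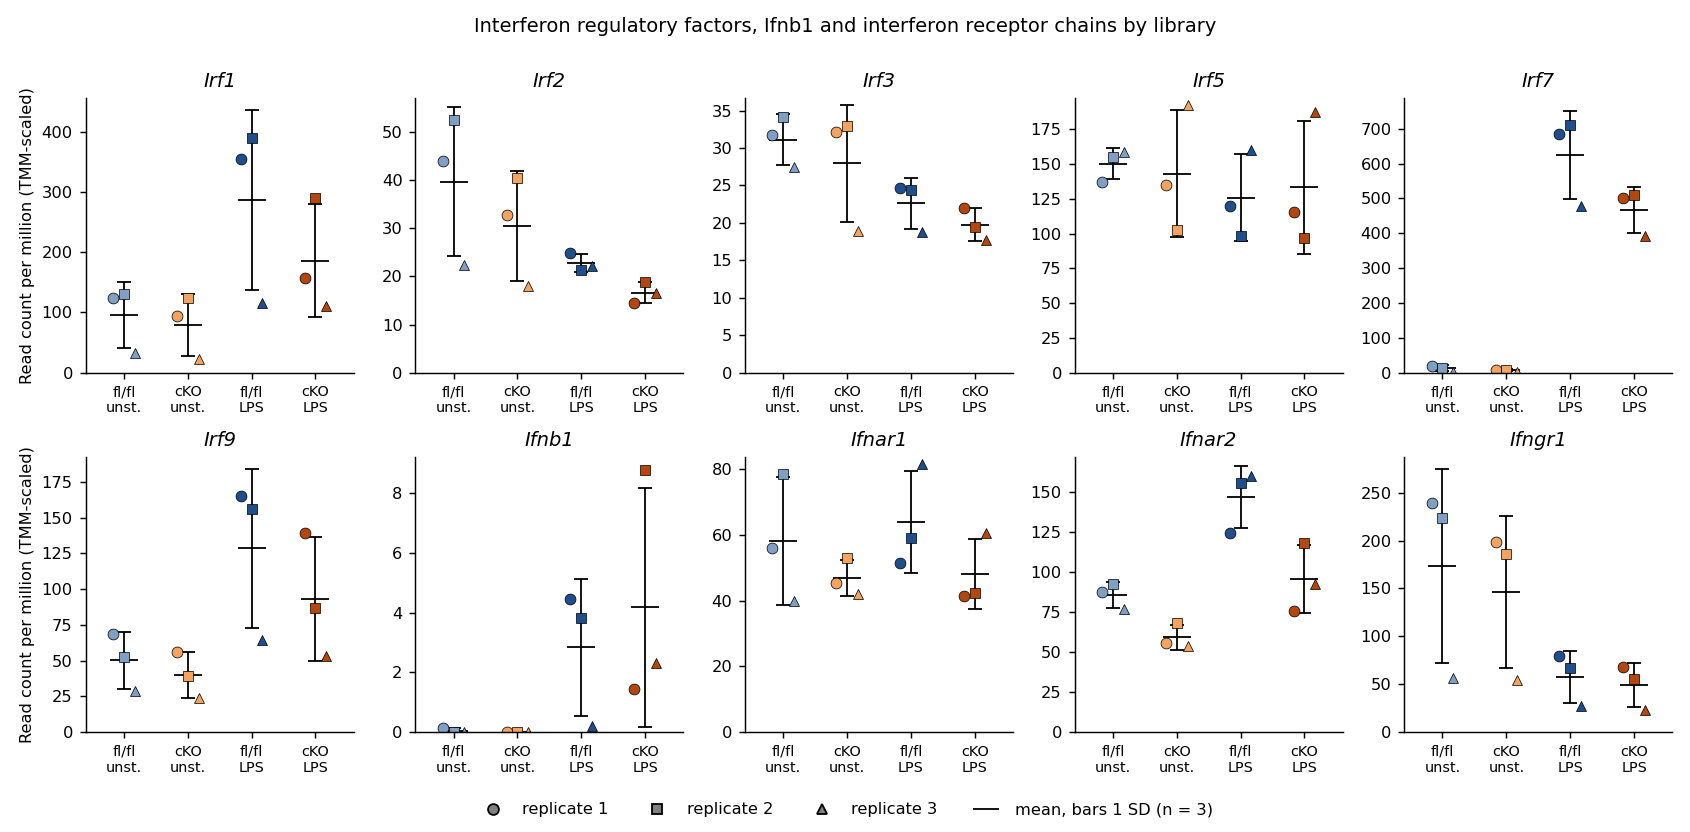
Level of each of the 10 genes (CPM, linear axes from 0) in the 12 libraries, by group; marker shape gives the replicate number, lines the group mean and bars 1 SD (n = 3). Irf7 lies below 21 CPM in unstimulated libraries and at 391.3 CPM or more after LPS, whereas Irf1 and Ifngr1 are lowest in replicate 3 of every group.

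Next, the effect of LPS was determined in each genotype. Irf7 (GRCm39 chr7:140842619-140846394, - strand) had the largest change among the regulators and rose in both genotypes. In CD18fl/fl BMDCs it was at 20.1, 14.4 and 2.97 CPM in the unstimulated replicates 1, 2 and 3 and at 683, 712 and 479 CPM after LPS. The CD18CD11c cKO values were 8.47, 8.70 and 2.98 CPM before and 500.2, 509 and 391 CPM after LPS. Every stimulated library was far above every unstimulated one of the same genotype. The fitted log2 fold change was 5.64 ± 0.75 (SE) in CD18fl/fl (adjusted p = 0.0162, edgeR quasi-likelihood test with Benjamini-Hochberg adjustment over all genes) and 6.07 ± 0.50 in CD18CD11c cKO BMDCs (adjusted p = 0.00916). The ratio of the group means was 49.9 and 69.5, respectively. With the replicate block, the fold changes were 5.98 (adjusted p = 0.00479) and 6.20 (adjusted p = 0.000653). Without the block the call was lost when some single libraries were left out: in CD18fl/fl the adjusted p was 0.0648 without unstimulated replicate 1, 0.119 without unstimulated replicate 2, 0.0734 without LPS replicate 1 and 0.0690 without LPS replicate 2. In CD18CD11c cKO it was 0.0557 and 0.0505 without the unstimulated replicates 1 and 2 and 0.0596 without LPS replicate 2. In these CD18fl/fl fits 0 of all genes were called, and in these CD18CD11c cKO fits at most 3 higher and 1 lower. The Irf7 log2 fold change stayed between 5.18 and 6.17 in CD18fl/fl and between 5.71 and 6.31 in CD18CD11c cKO BMDCs with single libraries left out.

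Irf7 was the only member called higher in CD18fl/fl BMDCs without the block, 1 of 9 tested, beside 2.06% of 12744 genes called higher, and 0 members were called lower, beside 1.83% of genes. With the block, 3 members were higher and 1 was lower, beside 6.33% and 6.43% of genes. In CD18CD11c cKO BMDCs Irf7 was called higher without the block, beside 2.23% of 12687 genes, and 0 members lower, beside 1.76%. There the block gave 5 members higher and 1 lower, beside 10.2% and 9.93% of genes. Ifnb1 is among these 5 and would be a further call without the block, but it entered the test through its stimulated libraries alone. Without the libraries numbered 3, the members called were 5 higher and 2 lower in CD18fl/fl and 2 higher and 2 lower in CD18CD11c cKO BMDCs, with Ifnb1 counted among the higher ones in both. Stimulated and unstimulated libraries did not overlap for 3 of 9 members in CD18fl/fl BMDCs, Irf7 and Ifnar2 being higher and Irf3 lower, beside 13.6% of all genes higher and 15.9% lower. In CD18CD11c cKO BMDCs the members without overlap were Irf7 and Ifnar2, both higher, beside 14.8% of genes higher and 13.4% lower. Ifnb1 is left out here, because passing the filter through its stimulated libraries alone set its separation in advance.

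Irf1 (chr11:53660841-53669200, + strand), itself an interferon-γ and NF-κB target, was higher after LPS in every pair of same-numbered libraries. Unstimulated CD18fl/fl replicates 1, 2 and 3 had 124, 131 and 32.2 CPM, and the stimulated ones 355, 390 and 115 CPM. Levels in CD18CD11c cKO BMDCs were 93.2, 123 and 22.2 CPM before and 158, 291 and 110.2 CPM after LPS. Replicate 3 was lowest in all groups, and its stimulated libraries lay below the unstimulated replicate 2 in both genotypes, so that the groups overlapped. The log2 fold change was 1.58 ± 0.65 in CD18fl/fl (adjusted p = 0.197) and 1.17 ± 0.62 in CD18CD11c cKO (adjusted p = 0.335) without the block. Without the libraries numbered 3, and with no block, Irf1 was called in CD18fl/fl, at 1.54 (adjusted p = 1.8e-05). With the block both passed the threshold, at 1.65 ± 0.22 (adjusted p = 0.00956) and 1.38 ± 0.32 (adjusted p = 0.0261).

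Irf9 (chr14:55841028-55847487, + strand), the DNA-binding subunit of ISGF3, showed a like pattern. In CD18fl/fl BMDCs it was at 69.0, 52.4 and 29.1 CPM before and at 165, 156 and 64.6 CPM after LPS. The values were 56.0, 39.2 and 23.9 CPM and 139, 87.1 and 53.4 CPM in CD18CD11c cKO BMDCs. Again replicate 3 was lowest throughout, and stimulated replicate 3 lay below unstimulated replicate 1 in both genotypes. Irf9 was not called by edgeR without the block, with log2 fold changes of 1.36 ± 0.46 (adjusted p = 0.142) and 1.18 ± 0.42 (adjusted p = 0.167). In CD18fl/fl it was called without the block by DESeq2 (adjusted p = 0.0438) and when the libraries numbered 3 were left out of the edgeR test (adjusted p = 6.4e-05). It was called with the block, at 1.33 ± 0.22 (adjusted p = 0.0167) and 1.16 ± 0.17 (adjusted p = 0.00576). The gene shares 123 bases with the end of Rnf31 on the same strand.

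Irf2 (chr8:47192767-47300493, + strand), the repressive counterpart of Irf1, had lower group means after LPS. CD18fl/fl BMDCs had 44.1, 52.5 and 22.5 CPM unstimulated and 25.0, 21.2 and 22.2 CPM after LPS. CD18CD11c cKO BMDCs had 32.9, 40.6 and 18.0 CPM and 14.5, 18.9 and 16.6 CPM. Replicates 1 and 2 were clearly lower after LPS, whereas replicate 3, already low before, hardly moved. The log2 fold changes of -0.80 ± 0.34 and -0.92 ± 0.34 did not pass the threshold in edgeR with TMM scaling (adjusted p = 0.209 and 0.175), also not with the block (0.160 and 0.0703). In CD18CD11c cKO BMDCs 2 other fits with the block called Irf2 lower. These were edgeR with library size scaling (-1.07, adjusted p = 0.0361) and DESeq2 (-0.85, adjusted p = 0.0374). When all libraries numbered 3 were left out (2 against 2 libraries), Irf2 was called lower in both genotypes, at -1.07 (adjusted p = 0.000527) and -1.25 (adjusted p = 0.0231).

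Irf3 (chr7:44647072-44652272, + strand), the regulator activated directly downstream of Tlr4, is controlled mainly by phosphorylation. Its level in CD18fl/fl BMDCs was 31.7, 34.2 and 27.5 CPM unstimulated and 24.7, 24.4 and 18.7 CPM after LPS, without overlap of the groups. It was 32.1, 32.9 and 18.9 CPM and 22.0, 19.5 and 17.7 CPM in CD18CD11c cKO BMDCs, where unstimulated replicate 3 overlapped the stimulated libraries. The differences of -0.46 ± 0.23 and -0.55 ± 0.28 on the log2 scale did not pass the threshold (adjusted p = 0.269 and 0.319, and 0.173 and 0.147 with the block).

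Irf5 (chr6:29526624-29541870, + strand) was the member with the least movement among the regulators. CD18fl/fl BMDCs had 137, 155 and 159 CPM unstimulated and 120, 98.1 and 160 CPM after LPS. CD18CD11c cKO BMDCs had 135, 103 and 192 CPM and 116, 96.6 and 187 CPM. In contrast to the other regulators, replicate 3 had the highest value in every group, and the states overlapped in both genotypes. The log2 fold changes were -0.25 ± 0.26 (adjusted p = 0.602) and -0.14 ± 0.37 (adjusted p = 0.875). Irf3 overlaps Bcl2l12 by 1065 bases and Irf5 overlaps Tnpo3 by 1045 bases on the opposite strand, and the kit does not keep the strand of a read, so that reads in these stretches cannot be assigned.

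**Figure D2:**
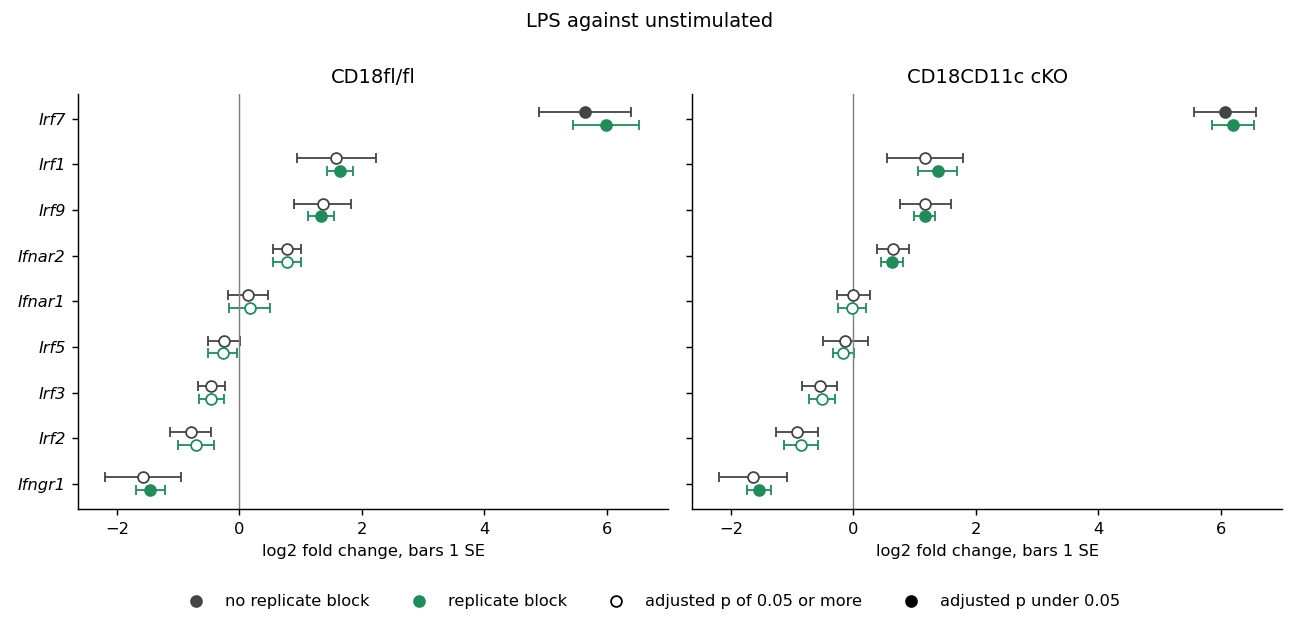
Log2 fold change of LPS-treated over unstimulated BMDCs for 9 genes, CD18fl/fl and CD18CD11c cKO in separate panels, without (grey) and with (green) the replicate block; bars are 1 SE and filled symbols mark adjusted p under 0.05. Irf7 stands at 5.64 and 6.07 without the block, and Irf1, Irf9 and Ifngr1 are filled in both genotypes only with it; Ifnb1 is not plotted because its unstimulated libraries are at 0 or 5 reads.

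Ifnb1, encoding interferon-β, has a single exon of 750 bases (chr4:88440262-88441011, - strand) and was nearly silent without stimulation. Unstimulated CD18fl/fl replicates 1, 2 and 3 had 5, 0 and 0 reads, and all 3 unstimulated CD18CD11c cKO libraries had 0 reads. After LPS, 139, 103 and 8 reads were counted in CD18fl/fl and 36, 195 and 71 reads in CD18CD11c cKO BMDCs. These are 4.46, 3.83 and 0.203 CPM and 1.46, 8.76 and 2.30 CPM, respectively. Reads were thus present in all 6 stimulated libraries, with the lowest value in CD18fl/fl replicate 3 and the highest in CD18CD11c cKO replicate 2. Against the floor of 3 reads per library (0.0979 CPM on average), the mean of 4.17 ± 3.99 CPM in stimulated CD18CD11c cKO BMDCs was at least 42.6-fold higher, and single libraries were at least 14.9-fold to 89.5-fold higher. In CD18CD11c cKO BMDCs the gene passed the filter on low counts through its stimulated libraries alone, which set the direction of the test in advance, so that no p is given. In CD18fl/fl BMDCs, with a mean of 2.83 ± 2.30 CPM after LPS, Ifnb1 did not pass this filter and was not tested.

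Other interferon genes were hardly detected. All interferon-α genes listed had 0 reads in every library but for Ifna1, with up to 5 reads, and Ifna14, with up to 2 reads, both in stimulated CD18CD11c cKO BMDCs. For interferon-γ, Ifng was at 3 to 19 reads in unstimulated CD18fl/fl, 0 to 4 in unstimulated CD18CD11c cKO, 0 in stimulated CD18fl/fl and 9 to 18 reads in stimulated CD18CD11c cKO libraries. The summed level of 6 T or NK cell markers, whose cells are the usual source of Ifng, was between 0.178 and 1.75 CPM in the stimulated CD18fl/fl group, with Klrb1c at 0, and between 0.629 and 3.08 CPM in the stimulated CD18CD11c cKO group, with Trac, Ncr1 and Klrb1c at 0. It was between 3.39 and 18.9 CPM in unstimulated CD18fl/fl and between 0.665 and 21.3 CPM in unstimulated CD18CD11c cKO libraries, and their part in the Ifng reads was not tested. Ifne, Ifnk, Ifnl2 and Ifnl3 had 0 reads throughout. The 8 plasmacytoid dendritic cell markers, of the type that secretes most interferon-α in vivo, summed to between 22.7 and 80.0 CPM, and Siglech was at 0 in both stimulated groups.

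Among the receptor chains, Ifngr1 had the largest difference and Ifnar2 the most even one. Ifngr1 (chr10:19467697-19485977, + strand), the ligand-binding chain for interferon-γ, was at 239, 224 and 57.0 CPM in unstimulated and at 79.5, 66.9 and 27.6 CPM in stimulated CD18fl/fl BMDCs. The CD18CD11c cKO libraries had 198, 186 and 54.9 CPM and 68.0, 55.8 and 23.5 CPM. In both genotypes LPS went with a lower level in each pair, to 0.335 and 0.336 of the unstimulated mean, but unstimulated replicate 3 lay within the stimulated range. The log2 fold changes of -1.58 ± 0.62 and -1.64 ± 0.55 were not called by edgeR without the block (adjusted p = 0.183 and 0.147). DESeq2 without the block called Ifngr1 lower in CD18CD11c cKO (adjusted p = 0.0318), and edgeR without the libraries numbered 3 called it lower in both genotypes (adjusted p = 1.3e-05 and 0.00581). With the block, Ifngr1 was called lower in both genotypes, at -1.45 ± 0.24 (adjusted p = 0.0185) and -1.55 ± 0.20 (adjusted p = 0.00377).

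Ifnar2 (chr16:91169671-91202477, + strand), which binds interferon-α and -β with high affinity, was at 87.5, 92.5 and 76.8 CPM in unstimulated CD18fl/fl BMDCs and at 125, 156 and 160 CPM after LPS. Its level in CD18CD11c cKO BMDCs was 55.9, 68.0 and 53.6 CPM before and 75.9, 118 and 92.5 CPM after LPS. All stimulated libraries were above all unstimulated ones of the same genotype. The log2 fold changes were 0.78 ± 0.23 (adjusted p = 0.106) and 0.64 ± 0.26 (adjusted p = 0.211). With the block only the latter passed, at 0.63 ± 0.18 (adjusted p = 0.0495), with an adjusted p of 0.0714 in CD18fl/fl. This call was lost with library size scaling and the block (0.41, adjusted p = 0.142), whereas DESeq2 with the block also called Ifnar2 in CD18fl/fl (0.81, adjusted p = 0.0190), as did edgeR without the libraries numbered 3 (0.64, adjusted p = 0.00879). Between 86.5% and 91.7% of Ifnar2 reads mapped uniquely, so that a part of its count depends on how reads with several positions were assigned. Over 13869 bases the gene overlaps Gm21970 on the same strand, to which 0 to 15 reads were assigned.

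Ifnar1 (chr16:91282126-91304329, + strand), the signalling partner of Ifnar2 on the same chromosome, had no common direction. It was at 56.1, 78.5 and 39.7 CPM unstimulated and 51.4, 59.1 and 81.4 CPM after LPS in CD18fl/fl BMDCs. The corresponding CD18CD11c cKO levels were 45.4, 52.9 and 42.1 CPM and 41.5, 42.2 and 60.5 CPM. Replicates 1 and 2 were lower and replicate 3 was higher after LPS in both genotypes. The log2 fold changes were 0.14 ± 0.33 (adjusted p = 0.824) and -0.00064 ± 0.27 (adjusted p = 0.999), and their sign depended on the scaling of the libraries. Il10rb, the receptor gene between Ifnar2 and Ifnar1 on chromosome 16, stayed between mean levels of 83.2 and 88.5 CPM over the 4 groups. Ifngr2, which follows Ifnar1 on that chromosome, had mean levels of 80.5 and 169 CPM in CD18fl/fl and 52.5 and 109.9 CPM in CD18CD11c cKO BMDCs before and after LPS, and its log2 fold changes of 1.07 and 1.00 were not called without the block (adjusted p = 0.180 and 0.235). With the block Ifngr2 was called higher in CD18CD11c cKO only, at 0.87 (adjusted p = 0.0438, against 0.0627 in CD18fl/fl).

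Much of the spread in these genes lay between replicate 3 and the others. In unstimulated CD18fl/fl BMDCs, replicate 3 had 25.2% of the mean of replicates 1 and 2 for Irf1, 24.6% for Ifngr1 and 17.2% for Irf7. For Irf1 and Ifngr1 the shares were 20.5% and 28.6% in unstimulated CD18CD11c cKO, 30.9% and 37.7% in stimulated CD18fl/fl and 49.2% and 38.0% in stimulated CD18CD11c cKO BMDCs. The share for Irf9 was between 40.2% and 50.3% in all groups. For Irf2 it was 46.5% and 49.0% in the unstimulated groups but 96.0% and 99.3% in the stimulated ones. Irf5 went the other way, with between 108.5% and 176.5%. Over 10356 genes the median log2 ratio of replicate 3 to the others was between -0.0683 and 0.0305, and its percentile 5 between -1.65 and -1.47, so that Irf1, at -1.99, and Ifngr1, at -2.02, lay in the lowest part of the distribution in unstimulated CD18fl/fl BMDCs. Ifnar2, at 85.4% to 114.2%, and Ifnar1, at 59.1% to 147.3%, had no common direction. Replicate 3, where Irf1, Irf9 and Ifngr1 were lower, had the lower monocyte and higher mast cell or basophil marker levels given above. Also lower there were the 10 neutrophil markers, at 11.4 to 18.7 CPM in replicate 3 against 43.0 to 1322 CPM in the others, the 6 B cell markers, at 0.665 to 2.64 against 8.83 to 139 CPM, the 8 plasmacytoid dendritic cell markers, at 22.7 to 34.5 against 49.0 to 80.0 CPM, and the 10 dendritic cell markers, at 16260 to 23190 against 25230 to 46430 CPM. The 10 macrophage markers were lowest in replicate 3 of the CD18fl/fl groups (2010 and 1168 CPM) but highest in replicate 3 of the CD18CD11c cKO groups (2434 and 942 CPM). The part of these markers in the values was not tested. In such bulk samples, fewer cells of a type and less RNA per cell cannot be told apart.

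**Figure D3:**
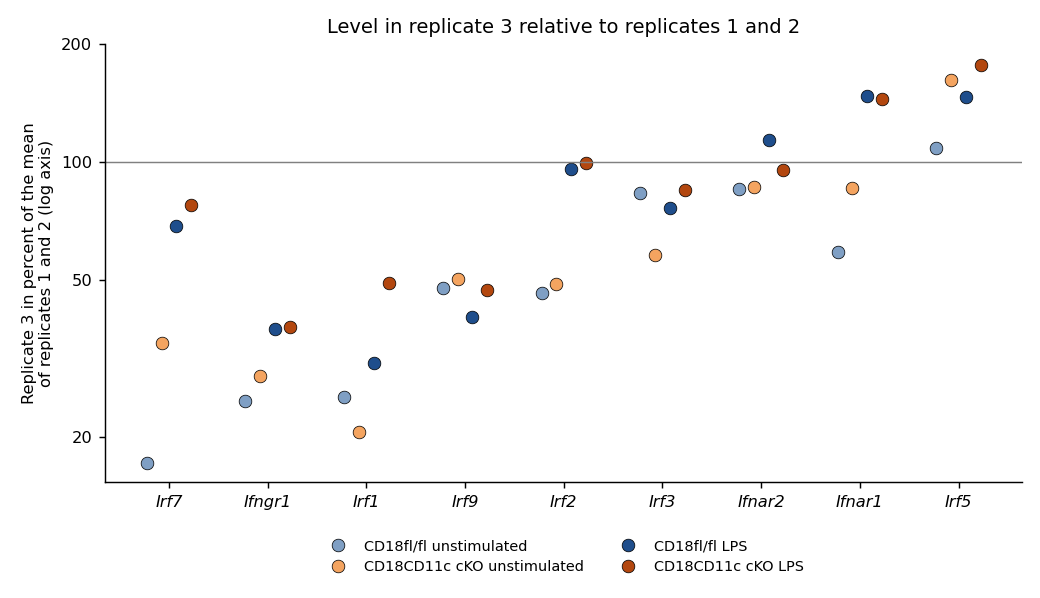
Level in replicate 3 as a percentage of the mean of replicates 1 and 2 (log axis) for 9 genes in the 4 groups. Irf1, Irf9 and Ifngr1 lie below 51% in every group, whereas Irf5 lies above 100% in every group.

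Next, the genotypes were compared within each state. Without the block 0 of 12876 genes unstimulated and 0 of 12441 genes after LPS were called by edgeR (0% in both), although 2159 and 1212 had an unadjusted p under 0.05, and DESeq2 called 491 genes higher and 47 lower unstimulated, and 141 higher and 9 lower after LPS. Accordingly, 0 members were called. All 9 members tested in the unstimulated state and 8 of 10 after LPS had a negative log2 fold change, that is, a lower fitted level in CD18CD11c cKO BMDCs, with a median of -0.26 and -0.44 beside -0.048 and -0.11 over all genes. These signs were not stable. When libraries were left out, the unstimulated sign changed for Irf1, Irf3, Irf5, Irf9, Ifnar1 and Ifngr1. Among the negative values after LPS it changed for Ifngr1. When the block was included, 1 member, Ifnar2, was called lower in each state, beside 8.16% of genes called lower unstimulated (and 12.1% higher) and 3.16% after LPS (and 6.98% higher).

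Ifnar2 was lower in CD18CD11c cKO BMDCs in each of the 3 pairs and without overlap in both states, as can be read from the values above. Such separation was found towards lower values for 13.1% of all genes unstimulated and for 8.09% after LPS, and towards higher values for 11.7% and 9.51%. Group means were 59.2 ± 7.76 against 85.6 ± 8.02 CPM unstimulated, a ratio of 0.691, and 95.5 ± 21.3 against 147 ± 19.2 CPM after LPS, a ratio of 0.651. The log2 fold change was -0.48 ± 0.20 unstimulated (adjusted p = 0.285) and -0.65 ± 0.26 after LPS (adjusted p = 0.499). With the block it was -0.48 ± 0.14 (adjusted p = 0.0459) and -0.66 ± 0.15 (adjusted p = 0.0372). An offset for exon length together with the block ended both calls, at -0.41 (adjusted p = 0.0967) and -0.55 (adjusted p = 0.0749).

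The other members did not pass the threshold between the genotypes, with or without the block. Irf2 was the only one of them that separated the genotypes, after LPS, at 16.7 ± 2.18 CPM in CD18CD11c cKO against 22.8 ± 1.93 CPM in CD18fl/fl BMDCs (log2 fold change -0.48 ± 0.23, adjusted p = 0.562, and 0.136 with the block). Irf7 had a mean of 467 ± 65.6 CPM in stimulated CD18CD11c cKO and 625 ± 127 CPM in stimulated CD18fl/fl BMDCs, a ratio of 0.747, and was lower in each pair. Its log2 fold change was -0.45 ± 0.26 (adjusted p = 0.639, and 0.0792 with the block). In the unstimulated state Irf7 was lower in replicates 1 and 2 only, with means of 6.72 ± 3.24 and 12.5 ± 8.75 CPM (log2 fold change -0.86 ± 0.72, adjusted p = 0.587, and between -1.33 and -0.33 with single libraries left out).

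Irf1, Irf9 and Ifngr1 were lower in CD18CD11c cKO BMDCs in all 3 pairs of both states. For Irf1 the ratio of the genotypes' means was 0.830 unstimulated and 0.650 after LPS, with log2 fold changes of -0.22 (adjusted p = 0.907) and -0.65 (adjusted p = 0.749), the latter between -1.12 and -0.38 with single libraries left out. Irf9 had ratios of 0.791 and 0.725, and those of Ifngr1 were 0.844 and 0.846. The SDs of these 3 genes in a group were between 40.0% and 65.2% of the mean, larger than the differences. Irf3 had ratios of 0.898 and 0.873, Ifnar1 of 0.806 and 0.752, and Irf5 of 0.953 and 1.057. For Ifnb1 the means after LPS were 4.17 in CD18CD11c cKO and 2.83 CPM in CD18fl/fl BMDCs, with overlapping libraries (log2 fold change 0.53 ± 1.08, adjusted p = 0.911).

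**Figure D4:**
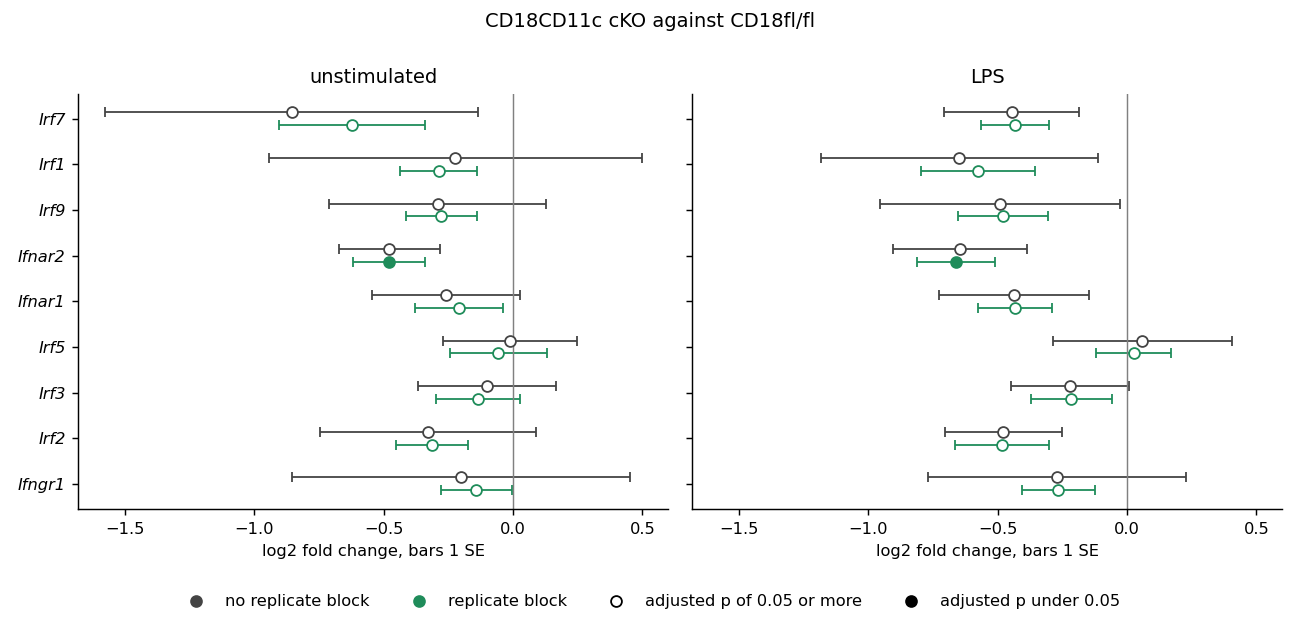
Log2 fold change of CD18CD11c cKO over CD18fl/fl BMDCs for 9 genes, unstimulated and LPS-treated in separate panels, without (grey) and with (green) the replicate block; bars are 1 SE and filled symbols mark adjusted p under 0.05. All unstimulated values lie below 0, though several change sign when libraries are left out, and Ifnar2 with the block, at -0.48 and -0.66, is the only filled symbol.

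The size of these differences depends on the scaling of the libraries, and for Irf5 after LPS its direction does too (-0.19 without TMM factors). The TMM factors ranged from 0.746 to 1.26 and were on the whole lower in CD18CD11c cKO and in stimulated libraries. When only the library size was used, the all-gene median of the log2 fold changes between the genotypes moved from -0.048 to -0.44 unstimulated and from -0.11 to -0.37 after LPS. With that scaling and the block, 701 genes were called higher and 3882 lower unstimulated, and 590 higher and 2052 lower after LPS, against 1555 and 1051, and 869 and 393, with TMM and the block. The members called lower then rose to 8 and 7. Ifnar2 had a log2 fold change of -0.87 and -0.91 there. The 6 proliferation markers also differed between the genotypes, with sums of 676 to 920.3 CPM in CD18CD11c cKO against 219 to 404 CPM in CD18fl/fl unstimulated and of 468 to 705 against 218 to 369 CPM after LPS. The 10 macrophage markers summed to 554 to 942 CPM in stimulated CD18CD11c cKO against 1168 to 1379 CPM in stimulated CD18fl/fl BMDCs, and to between 1841 and 2434 CPM in the unstimulated libraries of both genotypes, so that they were also lower after LPS. The part of either marker set in the members' values was not tested.

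Whether LPS acted differently in the genotypes was tested by the interaction of both factors over all 12 libraries. None of the 10 members, and 0 of 13752 genes (0%), passed the threshold in edgeR, while 97 genes (0.705%) had an unadjusted p under 0.05, and with the block 0 genes passed and 272 (1.98%) had such a p. The difference in log2 response was 0.48 ± 0.80 for Irf7, -0.35 ± 0.98 for Irf1, -0.13 ± 0.67 for Irf9 and -0.09 ± 0.31 for Ifnar2. For Ifngr1 it was 0.0042 ± 0.90, with a sign that turned with RLE factors and with the block. For Ifnb1, which had no reads in unstimulated CD18CD11c cKO BMDCs, the fitted value depends on the prior count and moved from 4.20 ± 2.61 to 0.47 when unstimulated CD18fl/fl replicate 1, with its 5 reads, was left out. For Irf1, Irf7, Irf9 and Ifngr1 the error was thus larger than the difference itself. With the block the errors were smaller, 0.25 for Ifngr1 and 0.24 for Irf9 and Ifnar2, and the differences were -0.03, -0.13 and -0.09. For Irf7 and Irf1 the blocked differences were 0.40 ± 0.53 and -0.16 ± 0.37. In each of these genes the error was still larger than the difference.

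The pathway around the members was described by lists. Of 30 ISGF3 target genes, 17 rose after LPS in CD18fl/fl and 18 in CD18CD11c cKO BMDCs, 0 fell in either, and the median log2 fold change was 3.12 and 3.28, beside -0.015 and -0.014 over all genes tested. With the block, 24 and 26 rose. For this and the following lists, the share of all genes called higher was 2.06% and 2.23% without the block and 6.33% and 10.2% with it. Among them Rsad2, an antiviral enzyme, rose by 6.23 ± 0.61 in CD18fl/fl BMDCs (adjusted p = 0.0127), Isg15, a ubiquitin-like modifier, by 5.73 ± 0.65 (adjusted p = 0.0138) and the exonuclease Isg20 by 4.21 ± 0.31 (adjusted p = 0.00989), all on the log2 scale. In CD18CD11c cKO BMDCs, Rsad2 rose by 6.20 and Isg15 by 5.57 (adjusted p = 0.0115 for both). These are targets of the factors whose own genes, Irf7 and Irf9, are described above.

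Of 20 interferon-γ and Irf1 target genes, 6 rose in CD18fl/fl and 9 in CD18CD11c cKO BMDCs (14 and 17 with the block) and 0 fell with or without it, with a median of 1.73 and 1.54. They included the GTPase gene Irgm1, at 2.45 (adjusted p = 0.0150) and 2.57, and Tap1, a peptide transporter for MHC class I, at 1.99 and 1.73. Beside these, Ifngr1 had lower mean levels after LPS, Irf1 was called over all 6 libraries with the block and not without it, and Ifng was at 0 to 18 reads in the stimulated libraries.

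Of 11 genes of receptor signalling, 2 rose in CD18fl/fl and 2 in CD18CD11c cKO BMDCs (3 and 5 with the block), with medians of 1.07 and 1.00. Stat2, the partner of Irf9 in ISGF3, rose by 2.96 ± 0.29 (adjusted p = 0.0127) and 3.14 ± 0.37 (adjusted p = 0.0131). Usp18, which blocks signalling at Ifnar2, rose by 3.51 ± 0.52 (adjusted p = 0.0206) and 2.98 (adjusted p = 0.0219). Ptpn2, a phosphatase that dampens receptor signalling, was called only with the block, at 1.61 ± 0.34 (adjusted p = 0.0329) and 1.03 ± 0.17 (adjusted p = 0.00861).

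Of 21 genes for interferon induction, 3 rose in each genotype (6 and 10 with the block), namely the nucleic acid sensors Zbp1, Ifih1 and Dhx58, and 1 fell in CD18CD11c cKO BMDCs. The latter was Sting1, the adaptor for cytosolic DNA, at -1.60 ± 0.26 (adjusted p = 0.0294). Zbp1 rose by 3.43 ± 0.44 in CD18fl/fl (adjusted p = 0.0162) and by 3.06 in CD18CD11c cKO BMDCs (adjusted p = 0.0124). Among 6 other genes of the Irf family and Irf2-binding proteins, 0 were called without the block. Irf8, a factor of dendritic cell and monocyte development, had mean levels of 1014 and 3175 CPM in CD18fl/fl and 700.2 and 2560 CPM in CD18CD11c cKO BMDCs, with replicate 3 lowest, and was called higher with the block only, at 1.66 (adjusted p = 0.00772) and 1.98 (adjusted p = 0.00264). Of 22 other interferon and receptor genes, 2 passed the filter and 0 were called.

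**Figure D5:**
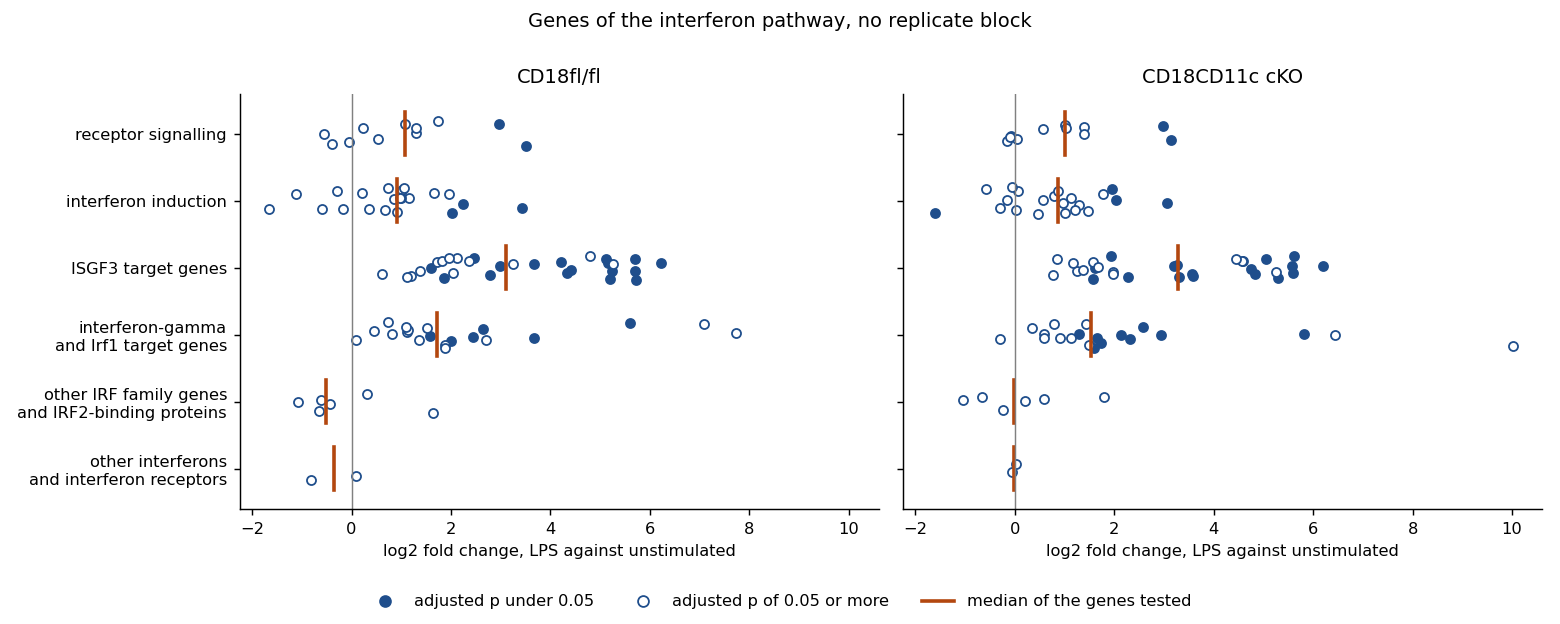
Log2 fold change of LPS-treated over unstimulated BMDCs for the genes of each list, by genotype; each point is a gene, filled where called without the block, and the line is the list's median. ISGF3 targets have the highest medians, 3.12 and 3.28.

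Between the genotypes, 0 genes of these lists were called without the block. Over all genes, 12.1% were called higher and 8.16% lower unstimulated with the block, and 6.98% and 3.16% after LPS. These shares stand beside all counts that follow. With the block, Jak1, the kinase bound to Ifnar2 and Ifngr1, was lower in unstimulated CD18CD11c cKO BMDCs (-0.60 ± 0.14, adjusted p = 0.0245), as were Ifngr2 (-0.56, adjusted p = 0.0260) and the inhibitor Socs3 (-0.87, adjusted p = 0.0165), whereas Ptpn2 was higher (0.54, adjusted p = 0.0380). After LPS, 0 of the 11 genes of receptor signalling were called in edgeR with the block, and 3 were lower at an unadjusted p under 0.05, which 28.1% of all genes had in either direction. Of the 21 genes for interferon induction, 1 was higher and 4 were lower unstimulated with the block, and 1 was higher and 1 lower after LPS. Tank, an adaptor of Tbk1, was higher in both states (1.07 and 1.14, adjusted p = 0.00579 and 0.00708), and Mavs, the adaptor of Ifih1, was lower in both (-0.79 and -1.01, adjusted p = 0.0315 and 0.0316). The others lower in the unstimulated state were the RNA sensor gene Tlr7 (-0.97, adjusted p = 0.0159) and the kinase genes Ikbke (-0.67, adjusted p = 0.0341) and Irak1 (-0.70, adjusted p = 0.0497). Of the 6 other genes of the Irf family and Irf2-binding proteins, 3 were lower unstimulated, namely Irf2bpl (-0.98, adjusted p = 0.0144), Irf2bp2 (-0.72, adjusted p = 0.0178) and Irf8 (-0.50, adjusted p = 0.0398), and 0 were called after LPS, where 0 also had an unadjusted p under 0.05.

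Of the ISGF3 targets 3 were higher and 0 lower unstimulated with the block, and 1 was higher and 1 lower after LPS. Of the interferon-γ and Irf1 targets, 4 of 18 tested were higher and 2 lower unstimulated, and 0 of 20 higher and 3 lower after LPS. Over all genes, 12.1% were called higher and 8.16% lower unstimulated with the block, and 6.98% and 3.16% after LPS, so that 3 of 30 ISGF3 targets is close to the share of all genes. The 4 of 18 and 3 of 20 lay above their shares, but the counts are small and were not tested as a set. Cd274, encoding the inhibitory ligand PD-L1, was among the interferon-γ and Irf1 targets lower after LPS, at -0.93 (adjusted p = 0.0109). Medians of the lists with the block were between -0.57 and -0.037 unstimulated and between -0.31 and -0.18 after LPS for the 5 lists with 6 or more genes tested. The medians over all genes were -0.065 and -0.092. Unstimulated, the ISGF3 targets (-0.067) were close to the median of all genes and the interferon-γ and Irf1 targets (-0.037) above it.

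Without the block, Irf7 was the only member called after LPS in the same direction in both genotypes with a log2 fold change of at least 1. Genes with the profile most similar to it were sought by the root-mean-square difference of centred log2 CPM over the 12 libraries. Among 13752 genes Rsad2 was nearest at 0.383, followed by Ifit1 at 0.461 and Isg15 at 0.527 log2 units. Mean levels of Rsad2 were 15.4 and 9.52 CPM in unstimulated and 1147 and 722 CPM in stimulated CD18fl/fl and CD18CD11c cKO BMDCs, respectively. Those of Ifit1 were 4.82, 3.44, 252 and 171 CPM, and those of Isg15 9.81, 12.3, 519 and 602 CPM. Isg15 thus had a higher mean in the CD18CD11c cKO group in both states, unlike Irf7, Rsad2 and Ifit1.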

How the data were processed

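Total RNA of 12 libraries (3 in each of 4 groups, taken from the library titles) was sequenced single-end by the authors, who processed the reads in CLC Genomics Workbench with default settings. The authors deposited raw counts of total gene reads for each of 41709 genes in 1 table per library, including reads with several positions, and between 95.1% and 96.2% of them were unique. The methods name GRCm39 and the labels GRCm38, and the positions in the tables match GRCm39. The Ensembl release is not given in the sources used here.

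Testing used edgeR 4.0.16 under R 4.3.3, with TMM scaling, filter on low counts (filterByExpr, minimum count 10), quasi-likelihood test on the 6 libraries compared (all 12 for the interaction), and Benjamini-Hochberg adjustment over all genes tested with a threshold of 0.05. The ± values of log2 fold changes are standard errors. TPM was computed from the total gene reads and the exon length in the tables. The 19795 genes with an exon length of 0 were left out of TPM and of the ranks by TPM. No library was a copy of another (chi-squared per degree of freedom of the most alike pair 43.9). Replicate numbers come from the titles. Deviations from the group means correlated between same-numbered libraries of the groups compared (0.261 to 0.743). Replicates 1 and 2 also correlated across their numbers (0.180 to 0.369). For LPS in CD18fl/fl, 2 with 2 (0.261) lay below 1 with 2 (0.328) and 2 with 1 (0.284). Only replicate 3 was clearly set apart, so that pairing of replicates 1 and 2 by number is an assumption. On this assumption, a fit with the replicate number as a block is given beside the unblocked one. The fits were also run on simulated counts, with no shift of replicate 3 or one smaller than in these data. No result given here rests on that run.

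Named were the members, the targeted gene, up to 5 genes per list and comparison with the smallest p, and for each member called after LPS in both genotypes without the block with an absolute log2 fold change of at least 1 the 3 genes nearest in profile. Members and lists were chosen with earlier results of these data known. One gene of receptor signalling is not reported here and was left out of that list. Alternatives were library size scaling, RLE factors, no filter, unique reads, DESeq2 1.42.0, the block, an exon length offset (lowess, span 0.3) with the block, all 12 libraries, and each library or all replicates 3 left out. Library size scaling and DESeq2 with the block were chosen after seeing the data.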

Additional observations from a re-analysis of the deposited data

How the results depend on the processing

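Of 866 log2 fold changes of members recomputed under the alternatives, 723 kept their direction and their side of the threshold, 59 passed it, 12 lost the call and 72 changed sign, none of them a called value. Pairing by the replicate block raised the genes called after LPS from 263 higher and 233 lower to 807 and 820 in CD18fl/fl (members 3 and 1) and from 283 and 223 to 1300 and 1260 in CD18CD11c cKO BMDCs (members 5 and 1), and between the genotypes from 0 to 1555 and 1051 unstimulated and to 869 and 393 after LPS (1 member lower in each). It changed the calls of the members named with it above and no other.

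For LPS in CD18fl/fl BMDCs, library size scaling gave 143 genes higher, DESeq2 969 and 826 (3 members higher), the exon length offset with the block 948 and 854 (members 3 and 1), all 12 libraries 568 and 500, library size scaling with the block 476 and 1145 (members 3 and 1), and DESeq2 with the block 1598 and 1533 (members 5 and 1). In CD18CD11c cKO BMDCs they gave, in the same order, 186 higher, 776 and 755 (1 member lower), 1370 and 1196 (5 and 1), 513 and 470, 884 and 1864 (4 and 2), and 1732 and 1645 (5 and 2), and without the filter 436 and 369. Between the genotypes, DESeq2 called 491 higher and 47 lower unstimulated and 141 and 9 after LPS. The length offset with the block gave 984 and 563, and 636 and 252, with 0 members. All 12 libraries gave 17 and 2, and 43 and 2, and no filter 1 higher after LPS. Library size scaling with the block gave 701 and 3882 (8 members lower), and 590 and 2052 (7 lower), and DESeq2 with the block 1779 and 1257, and 1252 and 617 (1 lower in each). For the interaction, DESeq2 with the block called 77 higher and 52 lower. The cause of these differences was not tested.

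Library size scaling moved the median of all genes after LPS to -0.32 in CD18fl/fl and -0.23 in CD18CD11c cKO BMDCs. Signs turned only for values that were not called. With library size scaling, without and with the block, Ifnar1 after LPS in CD18fl/fl was -0.14 and -0.16, Irf5 between stimulated genotypes -0.19 and -0.23, and Irf3 in the interaction 0.042 and 0.057. Ifnar1 after LPS in CD18CD11c cKO was 0.0016 with RLE factors, 0.0023 with unique reads, 0.026 with the length offset and block and 0.038 over 12 libraries. Ifngr1 in the interaction was -0.064 with RLE, -0.0029 without filter, -0.064 with DESeq2, -0.032 with the block, -0.0083 with the offset and block and -0.091 with DESeq2 and the block.

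Leaving out libraries, genes called after LPS ranged from 0 to 3000 higher and 0 to 3140 lower in CD18fl/fl (members 0 to 5 and 0 to 2) and from 0 to 1021 and 0 to 1028 in CD18CD11c cKO BMDCs (members 0 to 2 and 0 to 2). Between the genotypes they ranged from 0 to 1034 and 0 to 349 unstimulated and from 0 to 402 and 0 to 121 after LPS. The highest counts after LPS came without all libraries numbered 3. In CD18fl/fl BMDCs, 0 genes were called without unstimulated replicate 1 or 2 or LPS replicate 1 or 2, and 1613 and 1655 without LPS replicate 3. In CD18CD11c cKO BMDCs, 0 were called without unstimulated replicate 1, 3 and 1 without unstimulated replicate 2, 21 and 5 without LPS replicate 1, 2 and 0 without LPS replicate 2, and 545 and 488 without LPS replicate 3. Log2 fold changes that changed sign ranged, after LPS, from -0.29 to 0.42 for Ifnar1 in CD18fl/fl, and from -0.34 to 0.12 for Ifnar1 and -0.52 to 0.14 for Irf5 in CD18CD11c cKO. Between unstimulated genotypes they ranged from -0.28 to 0.16 for Irf5, -0.25 to 0.13 for Irf3, -0.63 to 0.21 for Ifngr1, -0.69 to 0.24 for Irf1, -0.61 to 0.018 for Irf9 and -0.48 to 0.019 for Ifnar1. Between stimulated genotypes they ranged from -0.60 to 0.99 for Ifnb1, -0.30 to 0.26 for Irf5 and -0.63 to 0.048 for Ifngr1. Irf9 there ranged from -0.90 to -0.23 with no change of sign. In the interaction they ranged from -0.18 to 0.42 for Irf5, -0.28 to 0.093 for Irf3, -0.16 to 0.85 for Irf7, -0.42 to 0.19 for Irf2, -0.46 to 0.34 for Ifngr1, -0.85 to 0.11 for Irf1, -0.57 to 0.20 for Irf9, -0.28 to 0.053 for Ifnar2 and -0.47 to 0.038 for Ifnar1.

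The order of levels was the same at all 10 ranks with unique reads in 3 groups and at 8 in stimulated CD18CD11c cKO BMDCs, and without the libraries numbered 3 at 8, 7, 8 and 5 ranks. With 3 libraries a group and replicate 3 apart, edgeR on all 6 libraries without the block called Irf7 in both genotypes. Counts of members higher include Ifnb1 where it was tested and called, although it passed the filter through its stimulated libraries alone. Ifnb1, at 0 to 195 reads, is limited by depth.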
